A study of Mus musculus with 3 samples.

Results

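The SNPs of 2 genome segments were followed in exome DNA, a stretch of chromosome 12 (chr12:98234285-104871099, GRCm38) and a stretch of chromosome 15 (chr15:74621155-82778831). A SNP was kept when at least 20 of its counts could be assigned to an allele in each of the 3 libraries, which left 2235 SNPs of the 138659 autosomal SNPs with that depth. Of these, 775 were on chromosome 12 in 87 genes and 1460 on chromosome 15 in 214 genes. Both segments were chosen by the B6 share of the counts, since their outermost SNPs are SNPs with few or no B6 counts in the libraries of donor animal 6. The values at such SNPs are therefore given as a description, without a test.

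All cells were female F1 cells of the strain label C57BL/6 x CAST/EiJ, so each autosomal SNP between C57BL/6 (B6) and CAST/EiJ (CAST) should be read about equally often from either parental chromosome. E6.2 is the polyclonal sample, B220+IgM+ B cells of an animal reconstituted with 50 hematopoietic stem cells (HSCs), of which 58000 were sorted. E6.43 and E15.10 are monoclonal samples, CD4+CD8- thymus T cells of animals that received 1 HSC, with 250000 and 177000 cells sorted. Donor animal 6 supplied the stem cells for E6.2 and for the clone E6.43, and donor animal 15 those for E15.10. Where 3 values follow each other without a library name, they are for E6.2, then E6.43, then E15.10. The B cells come from the spleen according to the labels and from bone marrow according to the methods of the study. The recipients had been irradiated sub-lethally and retained blood cells of their own, which are also F1 between B6 and CAST. Each group is 1 library of 1 animal, so no replicate error exists. Between E6.2 and E6.43, clonality, cell type and recipient animal cannot be told apart. E6.43 and E15.10 share clonality and cell type, and between them donor and recipient animal cannot be told apart. The study gives the ages of donors and recipients as ranges and not for each of these animals, and DNA gives no expression by which the sorted cell types could be checked.

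An exome library is read after capture of exon fragments, and a SNP that differs between the parental strains shows which chromosome each fragment came from. Allelic imbalance (AI) is the B6 share of the allelic counts, near 0.5 where both chromosomes are present in equal amount and near 0 where no B6 base is read. In a reconstituted animal, a DNA imbalance can be inherited by all cells from the donor or be acquired in a clone, and loss of heterozygosity removes one parental allele over a continuous stretch. The chromosome 12 segment holds the Serpina cluster, which encodes secreted inhibitors of proteases, mostly made in the liver. The chromosome 15 segment holds the Ly6 genes, which encode small membrane-anchored surface proteins of blood and epithelial cells. It also holds *Apobec3*, a cytidine deaminase that restricts retroviruses, the Apol genes of apolipoprotein L proteins and the Cyp2d genes of drug-metabolising cytochromes.

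The libraries held 19471576, 13036005 and 10863972 allelic counts. The kept SNPs had medians of 100, 69 and 72 counts, so that a SNP of median depth with 0 B6 counts allows a B6 share of up to 3%, 4.35% and 4.17%. Intervals below are Wilson intervals at 95% confidence. They and these limits cover counting error only, and since neighbouring SNPs share fragments they are too narrow for sums over SNPs. Outside both segments the median AI was 0.543, 0.544 and 0.543.

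The close neighbourhood of SNPs with many and with few or no B6 counts is best seen in the reference sequence. In the coding windows that follow, from the forward strand of GRCm38, which is the B6 sequence, capitals mark the kept SNPs. The windows were taken for each gene in which a coding SNP with an AI under 0.1 in both libraries of donor animal 6 stood at most 10 bp from a coding SNP with a balanced AI, at the best covered such pair, with 15 bases on either side.
*Ttc8*, chr12:98974680-98974719: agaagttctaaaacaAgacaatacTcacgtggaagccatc
*Ccdc88c*, chr12:101022339-101022372: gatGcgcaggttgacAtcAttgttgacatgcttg
*Serpina12*, chr12:104037802-104037839: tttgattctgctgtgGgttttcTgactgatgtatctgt
*Serpina3i*, chr12:104268551-104268590: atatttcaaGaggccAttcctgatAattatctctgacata
*Serpina3m*, chr12:104389523-104389559: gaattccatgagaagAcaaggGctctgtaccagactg
*Sstr3*, chr15:78540353-78540393: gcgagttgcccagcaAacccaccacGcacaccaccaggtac
*Cdc42ep1*, chr15:78849543-78849574: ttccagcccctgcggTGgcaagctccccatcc
*Mgat3*, chr15:80212496-80212532: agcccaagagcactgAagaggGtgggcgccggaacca
*Cyp2d11*, chr15:82389151-82389185: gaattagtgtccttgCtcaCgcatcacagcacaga
A coding window of *Apobec3* shows the contrasting case, in which all 3 kept SNPs had an AI under 0.1 in both libraries of donor animal 6. It was picked for the most coding SNPs of this kind in the gene within 60 bases, so their low AI was fixed by the choice.
*Apobec3*, chr15:79897878-79897924: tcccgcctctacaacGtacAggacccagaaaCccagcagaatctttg

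In the *Cdc42ep1* window the adjacent capitals behaved differently. *Cdc42ep1* encodes an effector of the small GTPase CDC42. At the T, the B6 base made up 1 of 62 counts in the polyclonal B cells, 0 of 33 in the clone of the same donor and 35 of 76 in the clone of donor animal 15. At the G on its right, the B6 counts were 36 of 63, 22 of 35 and 35 of 76. The base with 1 and 0 B6 counts in the libraries of donor animal 6 thus stood next to a base with both alleles, and in E15.10 both bases had the same share.

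*Sstr3*, a somatostatin receptor, showed the same over 10 bp. Its A had 1 B6 count of 110, 0 of 100 and 89 of 162, whereas its G had 44 of 112, 54 of 97 and 89 of 163. In *Ccdc88c*, a regulator of Wnt signalling, the second capital had 2 of 99, 0 of 81 and 48 of 72 B6 counts. The third capital, 3 bp to the right, had 50 of 99, 41 of 82 and 47 of 70. At *Cyp2d11* the order was turned, with the balanced C at 79 of 139, 70 of 131 and 58 of 124. The other C, 4 bp on, had 2 of 140, 0 of 131 and 59 of 126.

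*Serpina12*, which encodes the adipokine vaspin, had 70 of 125, 44 of 99 and 59 of 118 B6 counts at the G. At the T, 7 bp on, it had 0 of 122, 1 of 103 and 59 of 121. *Mgat3*, the transferase that adds the bisecting sugar to N-glycans, had 6 of 103, 0 of 79 and 56 of 103 at the A and 61 of 105, 45 of 82 and 59 of 105 at the G. In *Ttc8*, a subunit of the ciliary BBSome complex, the counts were low in E15.10, with 9 of 22 at both capitals. The T of *Ttc8* had 1 of 76 and 0 of 43 B6 counts in the libraries of donor animal 6, against 37 of 75 and 23 of 43 at the A. In each of these genes the total counts of the neighbours were close, and the B6 counts differed.

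To describe all SNPs, a SNP was called lacking when its AI was under 0.1 in both libraries of donor animal 6 and at least 0.25 in E15.10, and balanced when its AI was from 0.25 to 0.75 in both libraries of donor animal 6. Of the 2235 SNPs, 235 were lacking (10.5%), 1860 balanced (83.2%) and 140 neither (6.26%). Over all 138659 autosomal SNPs 0.982% were lacking, or 1362 SNPs, these segments included. This is not an even rate, since 731 of them were on chromosome 7, 385 on chromosome 9, 99 on chromosome 12 and 137 on chromosome 15. No other autosome held more than 3. The lacking SNPs comprised 98 on chromosome 12 in 33 genes and 137 on chromosome 15 in 43 genes. Just inside the limit of 0.1 the highest AI was 0.0985 for E6.2 and 0.0952 for E6.43, and just outside the lowest was 0.116 and 0.133. Only 18 and 8 SNPs had an AI between 0.1 and 0.25 in these 2 libraries, respectively.

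At the stricter limit of an AI under 0.05, 199 SNPs in E6.2 (8.90%, interval 7.79 to 10.2) and 246 in E6.43 (11.0%, 9.78 to 12.4) were under the limit, against 0.985% and 1.13% of all autosomal SNPs. In E15.10 it was 1 SNP (0.0447%), against 0.137%. The shares of all autosomal SNPs include the segments, and outside them they were 0.855%, 0.970% and 0.139%. The intervals of the SNP shares treat linked SNPs as independent draws, so they are not sampling limits. On chromosome 12 the numbers of SNPs under 0.05 were 79, 105 and 0 of 775, and on chromosome 15 they were 120, 141 and 1. The SNPs of E6.2 were all among those of E6.43, which had 46 more. The remaining SNP, in *Zc3h3*, was under 0.05 in E6.43 and E15.10 and low in E6.2 as well, with 4 of 61, 1 of 52 and 4 of 88 B6 counts. Of the 246 SNPs of E6.43, 242 had an AI of at least 0.25 in E15.10.

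SNPs were also picked in one library of donor animal 6 and read in the other. Since the segments were chosen by B6 shares in the libraries of donor animal 6, these values too are a description. The 199 SNPs under 0.05 in E6.2 had 0.284% B6 counts in E6.43 (0.216 to 0.374) and a highest AI of 0.0380 there. The 246 SNPs under 0.05 in E6.43 had 3.01% B6 counts in E6.2 (2.82 to 3.20) and a highest AI of 0.212. In E15.10 these SNPs had 50.5% and 51.5% B6 counts.

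**Figure D1:**
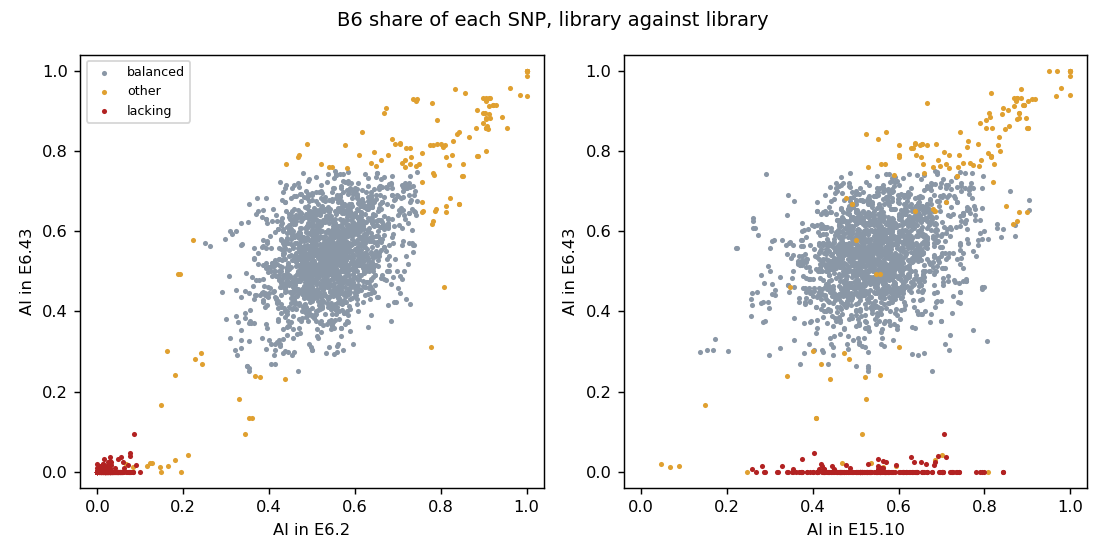
AI of each kept SNP (B6 share of its counts, no unit) in E6.43 on the vertical axes against E6.2 on the left and E15.10 on the right, coloured by class, where the classes are set by these AI values. The 235 lacking SNPs lie at the origin on the left and are spread along the lower edge on the right, from an AI of 0.258 to 0.844 in E15.10.

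The lacking SNPs were not quite free of B6 counts in E6.2. Summed over the 235 SNPs, 727 of 28994 counts in E6.2 were B6, or 2.51% (2.33 to 2.69). For E6.43 it was 68 of 20075, or 0.339% (0.267 to 0.429), and in E15.10 12620 of 24407, or 51.7% (51.1 to 52.3). The AI was higher in the B cells at 184 SNPs, higher in the T cell clone at 11 and equal at 40. No B6 count was seen at 42 lacking SNPs in the B cells and at 200 in the clone E6.43. The share in E6.2 was 2.89% on chromosome 12 and 2.07% on chromosome 15, and at the lacking SNPs of a continuous interval on chromosome 7 it was 2.51%, with 0.328% in E6.43. Since the lacking class was set by a low AI in these libraries, SNPs with a higher share are left out of these sums.

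Both segments were pieced together from lacking and balanced SNPs rather than depleted of B6 counts throughout. In order along the chromosome, the class switched between lacking and balanced 92 times on chromosome 12 and 134 times on chromosome 15. The lacking SNPs formed 52 unbroken stretches on chromosome 12, 31 of them of 1 SNP, and 68 on chromosome 15, 47 of them of 1 SNP. The longest had 7 and 24 SNPs. On chromosome 7 the interval of 6.10 Mb held 738 SNPs, of which 729 were lacking (98.8%) and 1 balanced. The share of lacking SNPs was 12.6% on chromosome 12 and 9.38% on chromosome 15, below the 20.1% and 19.6% of the chromosome 9 stretches chosen by the same values. With balanced SNPs in between, the lacking SNPs did not run unbroken over either segment, and the cause of this order was not tested.

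**Figure D2:**
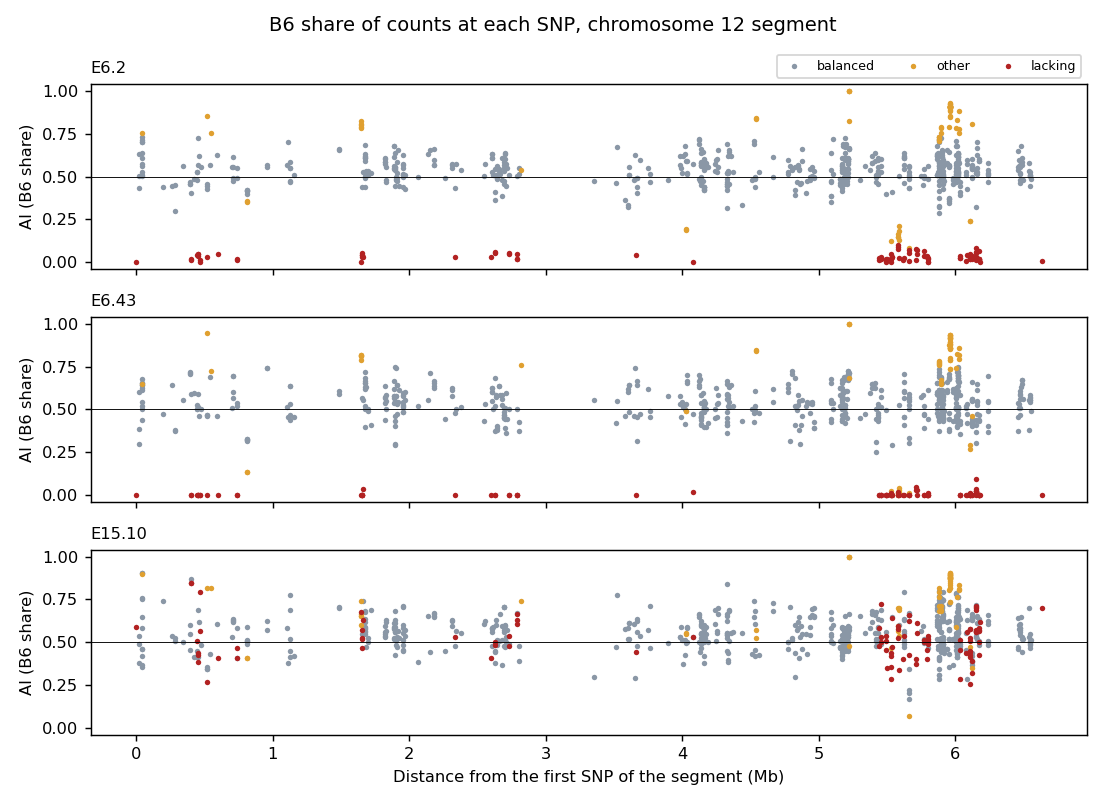
AI (B6 share, no unit) of the 775 chromosome 12 SNPs against their distance in Mb from the first SNP of the segment, with 1 panel per library and the line at 0.5. In the libraries of donor animal 6 the 98 lacking SNPs lie near 0 among balanced SNPs at the same places, and in E15.10 they lie among the balanced SNPs. The classes are set by these AI values, with at least 0.25 in E15.10 required of a lacking SNP.

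Close neighbours put numbers on this mixture. Of 297 neighbouring pairs at most 10 bp apart, 19 joined a lacking and a balanced SNP, in 12 genes, and 16 joined 2 lacking SNPs. Within 75 bp it was 70 mixed and 56 lacking pairs of 881, and within 300 bp 108 and 83 of 1262. In the 19 closest mixed pairs the AI of the lacking SNP was 0 to 0.0759 (E6.2) and 0 to 0.0392 (E6.43, the T cell clone). The AI of its balanced neighbour was 0.320 to 0.600 and 0.303 to 0.696. In E15.10 the lacking SNPs had 0.393 to 0.710 and the balanced ones 0.393 to 0.717. The class limits fix the gap in donor animal 6 and an AI of at least 0.25 for the lacking SNPs in E15.10. The total counts of the neighbours differed by a median of 1.90%, 3.85% and 1.6%, against 1.77%, 1.47% and 1.94% in pairs of balanced SNPs.

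**Figure D3:**
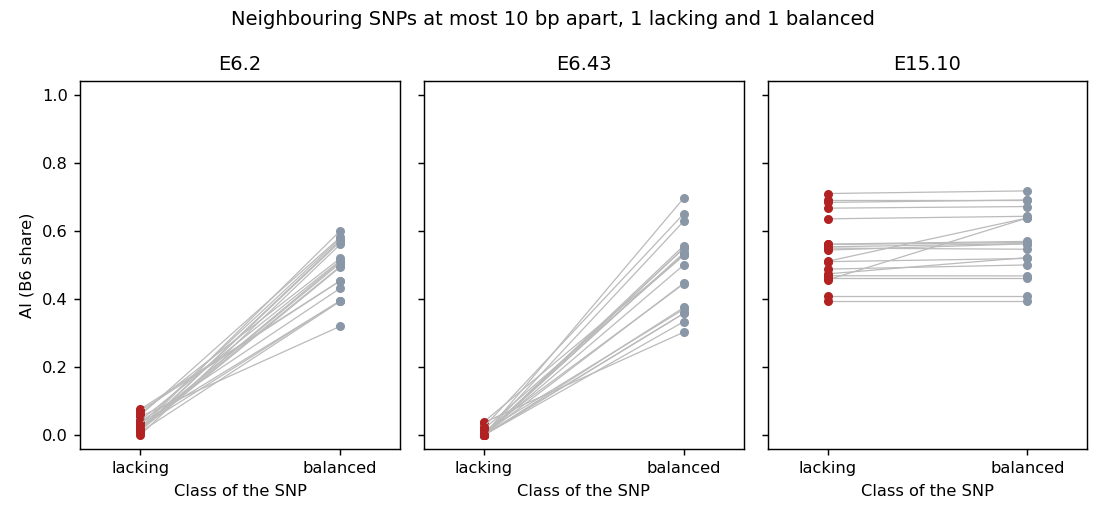
AI (B6 share, no unit) of the lacking and the balanced SNP in each of the 19 pairs at most 10 bp apart, joined by a line, with 1 panel per library. In both libraries of donor animal 6 each line rises from at most 0.0759 to at least 0.303, and in E15.10 both ends lie between 0.393 and 0.717. The class limits fix that each line rises in donor animal 6 and that the lacking end is at least 0.25 in E15.10.

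Along the chromosomes the lacking SNPs were grouped into clusters, cut wherever the next lacking SNP was more than 1 Mb away. The stretches between clusters are thus free of lacking SNPs by definition, and their values are given as a description. On chromosome 12 the first, from *Galc* to *Rin3* (chr12:98234285-102313134), held 30 lacking SNPs of 245 in 15 of 34 genes. The second, from *Serpina16* to *4930408O17Rik* (chr12:103674922-104871099), held 68 of 344 in 18 of 32 genes. The 186 SNPs of 23 genes over the 1.36 Mb between them had no lacking SNP and median AIs of 0.545, 0.536 and 0.553.

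On chromosome 15 the first cluster, from *Mroh4* to *Rhpn1* (chr15:74621155-75713294), held 16 lacking SNPs of 106 in 10 of 27 genes. The second, from *Ift27* to *Cacna1i* (chr15:78159506-80389220), held 105 of 440 in 30 of 63 genes, with the largest share, 23.9%. The third, from *Pheta2* to *Cyp2d41-ps* (chr15:82343745-82778831), held 16 of 143 in 3 of 13 genes. Between these clusters 505 and 266 SNPs over 2.45 and 1.95 Mb were not lacking, which the definition of a cluster fixed. Clusters are stretches in which the next lacking SNP was at most 1 Mb away.

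The limits of the segments are, by the choice made, the outermost lacking SNPs, so the values on either side are given as a description. At *Galc*, which encodes a lysosomal galactosidase, the first SNP of the chromosome 12 segment had AIs of 0, 0 and 0.591, and the nearest SNP outside, in the same gene, 0.490, 0.452 and 0.508. At the other end, in *4930408O17Rik*, the last SNP had 0.00909, 0 and 0.702, and the next, at 104871157, had 0.591, 0.581 and 0.682. The *Mroh4* SNP at the start of the chromosome 15 segment had 0.0166, 0.00645 and 0.551, against 0.58, 0.514 and 0.550 outside. The *Cyp2d41-ps* SNP at its end had 0.0306, 0.0244 and 0.635, against 0.433, 0.410 and 0.619. The 5, 139, 116 and 249 SNPs within 3 Mb of the 4 limits were not lacking, which the choice of the limits also fixed.

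**Figure D4:**
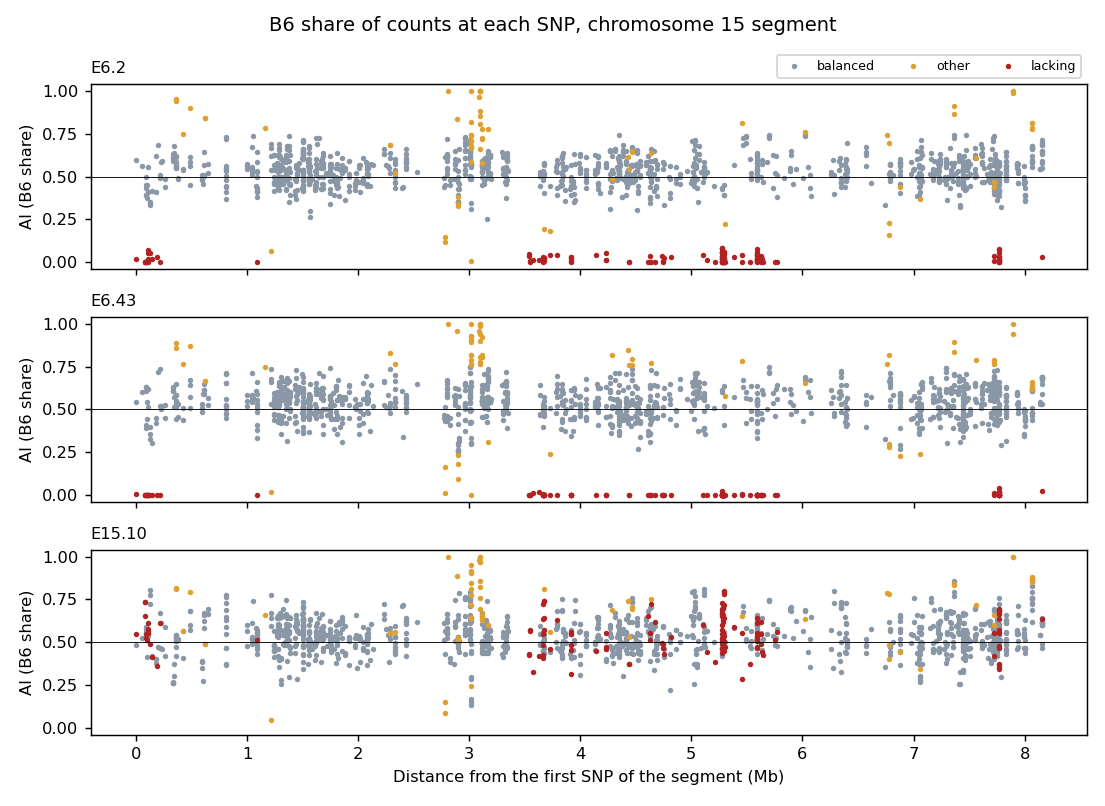
AI (B6 share, no unit) of the 1460 chromosome 15 SNPs against their distance in Mb from the first SNP of the segment, with 1 panel per library and the line at 0.5. The 137 lacking SNPs lie in 3 clusters in both libraries of donor animal 6, among balanced SNPs, and in E15.10 they are not set apart. The classes are set by these AI values, with at least 0.25 in E15.10 required of a lacking SNP.

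Lacking SNPs were found in 76 of the 301 genes, of which 67 also held balanced SNPs. Of the lacking SNPs, 172 were in coding sequence, 38 in UTRs, 24 in noncoding exons and 1 in no annotated exon of its gene. The first 3 groups were 73.2%, 16.2% and 10.2%, compared with 69.0%, 14.7% and 14.2% of the balanced SNPs. Among the 9 genes with lacking and no balanced SNPs only *Ift27*, *Serpina1e* and *Serpina3k* had more than 1 kept SNP. Summed over its SNPs, the AI of a gene was under 0.25 in 27, 28 and 0 of the 301 genes. The choice of the segments by low B6 shares in donor animal 6 favours the counts in E6.2 and E6.43. Genes outside the segments were not counted, so no background share is given.

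*Apobec3* (chr15, second cluster) had the most lacking SNPs, 34 of 38, of which 17 were coding. Its 34 lacking SNPs had 65 B6 counts of 2262, 1 of 1516 and 1442 of 2402. The B6 shares were 2.87% and 0.0660% in the libraries of donor animal 6, and in E15.10 the interval was 58.1% to 62.0%. The run of 24 SNPs from 79895315 to 79907447, over all coding SNPs of the gene, had 45 B6 counts of 1624, 1 of 1019 and 875 of 1531. Even here the run was flanked by balanced SNPs, 4 in all, all in noncoding exon sequence or UTRs. The balanced SNPs had 151 of 367, 136 of 248 and 218 of 414 B6 counts, or 41.1%, 54.8% and 52.7%. One of them, at 79892221, stood 15 bp from the lacking SNP at 79892236.

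*Cbx7*, a Polycomb protein gene after *Apobec3*, had 4 lacking SNPs of 6. They had 2 B6 counts of 214, 0 of 167 and 131 of 267, where 0 of 167 allows up to 1.80%. *Mgat3*, further on, had 33 SNPs, of which 14 were lacking and 19 balanced, and the class switched 18 times over the gene. Its lacking SNPs had 40 of 1502, 0 of 919 and 711 of 1364 B6 counts, and its balanced SNPs 1329 of 2388, 758 of 1506 and 1219 of 2111. In E6.43 this was 0% (up to 0.326%) against 50.3% at the balanced SNPs of the gene. *Mief1*, a factor of mitochondrial fission, had 3 lacking SNPs of 4, with 5 of 274, 0 of 203 and 111 of 202 B6 counts.

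At the start of this cluster, *Ift27*, a GTPase of ciliary transport, had 4 lacking SNPs and no other. Its B6 counts were 9 of 643, 0 of 443 (which allows up to 0.677%) and 412 of 765. *Csf2rb2*, the receptor chain specific for interleukin 3, had 10 lacking and 12 balanced SNPs, switching 7 times. The lacking SNPs of *Csf2rb2* had 24 of 1325, 1 of 789 and 781 of 1374 B6 counts, and the balanced ones 878 of 1707, 588 of 1148 and 710 of 1484. Its neighbour *Csf2rb*, the chain shared by the receptors for interleukin 3, interleukin 5 and GM-CSF, had 3 SNPs, 1 of them lacking. *Sstr3* had 5 lacking and 5 balanced SNPs, at 10 of 515, 0 of 424 and 391 of 801 and at 235 of 498, 210 of 392 and 400 of 780. *Tmem184b* had 3 lacking and 4 balanced SNPs.

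The 27 Serpina genes held 316 SNPs, of which 62 were lacking (19.6%), in 15 genes. Other genes of the chromosome 12 segment had 36 of 433 (8.31%). The rest of the Serpina SNPs were 211 balanced and 43 neither. Their lacking SNPs had 306 of 11586, 43 of 7872 and 3852 of 7809 B6 counts, or 2.64%, 0.546% and 49.3%. Members of the family are close copies, so that reads could be split between them or lost, which makes single values of the family uncertain.

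Among the Serpina1 genes, which encode the mouse forms of alpha-1-antitrypsin, *Serpina1e* had 4 lacking SNPs and no other, with 35 of 772, 15 of 543 and 550 of 1115 B6 counts. Its share of 2.76% in E6.43 was the highest of the genes with at least 3 lacking SNPs. *Serpina1b* had 4 lacking SNPs at 15 of 1136, 0 of 825 and 460 of 1029 and 1 balanced SNP at 97 of 244, 92 of 185 and 124 of 222. *Serpina1d* had 6 lacking SNPs of 8, at 39 of 1693, 4 of 1100 and 598 of 1368. *Serpina1f* had 3 of 6, *Serpina1a* 2 of 10 and *Serpina1c* 2 of 11. The pseudogene *Gm8893*, between *Serpina1d* and *Serpina1a*, had 4 lacking SNPs and 6 that missed the limit in E6.2 alone, with AIs from 0.128 to 0.212 in E6.2, 0 to 0.0411 in E6.43 and 0.535 to 0.702 in E15.10.

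Among the Serpina3 genes, related to the inhibitor of chymotrypsin-like proteases, *Serpina3k* had 9 lacking SNPs of 11, with 41 of 1504, 6 of 1024 and 245 of 544 B6 counts. *Serpina3m* had 9 lacking and 10 balanced SNPs. Its lacking SNPs had 44 of 1217, 17 of 773 and 416 of 661 B6 counts, and its balanced SNPs 716 of 1343, 424 of 901 and 345 of 582. *Serpina3n* had 6 lacking SNPs of 9, at 20 of 1207, 0 of 723 and 408 of 732. *Serpina3i* had 3 of 11, *Serpina3j* 2 of 7 and *Serpina3l-ps* 2 of 14.

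*Serpina3a*, *Serpina3b*, *Serpina3c*, *Serpina3f*, *Serpina3g* and *Serpina3h* had no lacking SNP, and their AIs were 0.582, 0.593, 0.524, 0.476, 0.555 and 0.571 in E6.2. *Serpina3d-ps*, also without one, had 0.607, 0.624 and 0.513. No lacking SNP was found either in *Serpina6*, which encodes the carrier of corticosteroids, at 0.528, 0.472 and 0.533, or in *Serpina5*, *Serpina10* and *Serpina11*. *Serpina3e-ps* stood out in the opposite direction, with an excess of B6 counts in each library and AIs of 0.792, 0.766 and 0.794. *Serpina12* had 6 lacking SNPs of 8, *Serpina16* 2 of 9 and *Serpina9* 2 of 7. The lacking SNPs of the family thus lay in 2 groups, from *Serpina16* to *Serpina12* and from *Serpina3i* to *Serpina3n*, with *Serpina5* to *Serpina3h*, which had no lacking SNP, in between.

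**Figure D5:**
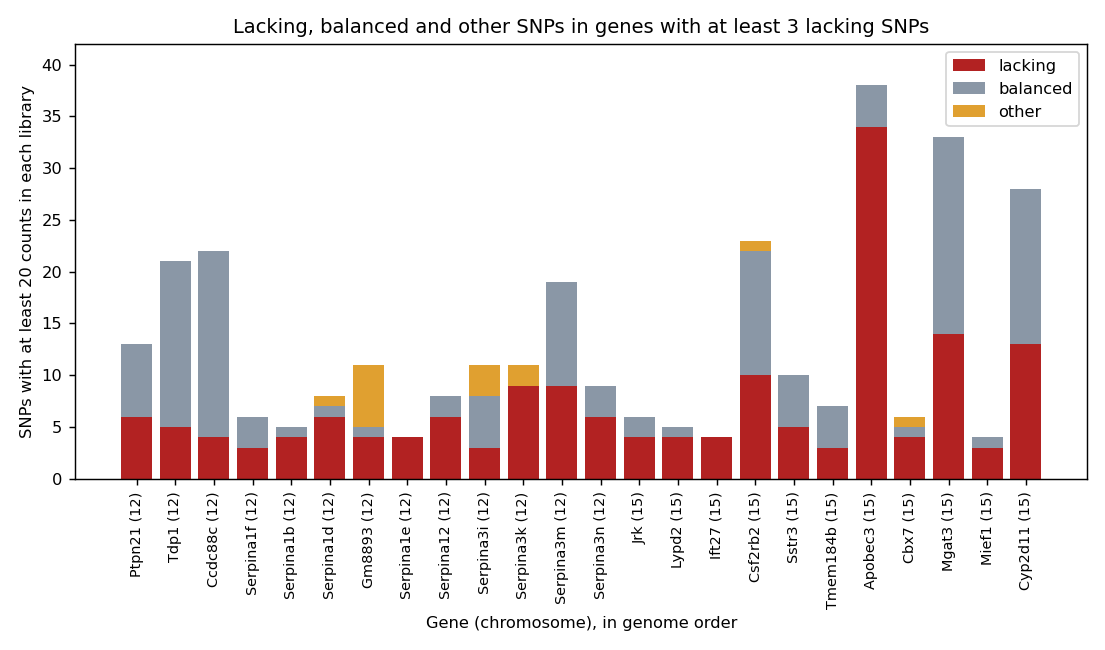
Number of lacking, balanced and other SNPs, stacked, in each gene with at least 3 lacking SNPs, in genome order with the chromosome in parentheses. *Apobec3* has the most, 34 of 38, and *Mgat3*, *Csf2rb2* and *Cyp2d11* hold both classes in similar numbers.

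On chromosome 12 outside the Serpina cluster, *Ptpn21*, a tyrosine phosphatase gene, had 6 lacking and 7 balanced SNPs that switched 8 times. The lacking ones had 26 of 763, 0 of 567 and 267 of 545 B6 counts. *Tdp1*, a DNA repair enzyme, had 5 lacking SNPs at 22 of 543, 3 of 386 and 219 of 408 and 16 balanced ones at 807 of 1481, 565 of 984 and 496 of 845. *Ccdc88c* had 4 lacking of 22. The Ifi27 genes, which respond to interferon and lie between the clusters, had 26 SNPs in 3 genes and no lacking SNP. Their AIs were 0.63, 0.624 and 0.493 for *Ifi27*, 0.489, 0.544 and 0.531 for *Ifi27l2a* and 0.635, 0.716 and 0.59 for *Ifi27l2b*.

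The 12 genes of the Ly6 family held 45 SNPs, of which 7 were lacking (15.6%), in *Lypd2*, *Lynx1*, *Ly6d* and *Gml*. *Lypd2* had 4 of 5, at 11 of 362, 0 of 312 and 242 of 420 B6 counts. *Lynx1*, a modulator of nicotinic receptors, had 1 of 4, and *Ly6d*, a marker of B lineage progenitors, 1 of 2. *Ly6a*, the stem cell marker Sca-1, had 2 balanced SNPs and AIs of 0.489, 0.487 and 0.515. *Ly6c1*, *Ly6c2*, *Ly6f*, *Ly6i*, *Psca* and *Slurp1* also had no lacking SNP, with AIs between 0.427 (*Psca* in E6.2) and 0.682 (*Ly6f* in E15.10). *Ly6e* differed the other way, with AIs of 0.622, 0.6 and 0.279 and each of its 6 SNPs at or under 0.375 in E15.10 and at or above 0.515 in the others. Next to the family, *Jrk* had 4 lacking SNPs of 6, with 0 of 195, 0 of 108 and 228 of 342 B6 counts, where 0 of 195 allows up to 1.54%.

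None of the 116 SNPs in 12 Apol genes, between the first and second clusters of chromosome 15, was lacking, though 1 was under 0.05 in E6.2 and 2 in E6.43. *Apol7e* had an excess of B6 counts in all 3 libraries, with AIs of 0.878, 0.876 and 0.847. *Apol9a* was lowest, at 0.377, 0.342 and 0.371, so that these genes deviated in E15.10 as well. *Apol11a* had 0.431, 0.386 and 0.537, and *Apol7c* had 0.469, 0.361 and 0.518. *Apol6*, *Apol7a*, *Apol7b*, *Apol8*, *Apol9b*, *Apol10a*, *Apol10b* and *Apol11b* had AIs between 0.456 (*Apol8* in E15.10) and 0.635 (*Apol11b* in E6.43). In *Apol11b* 12 of 22 SNPs were neither lacking nor balanced. Its single SNPs ranged from 0.01 to 1 in E6.2, 0 to 1 in E6.43 and 0.136 to 0.95 in E15.10. In the Cyp2d family, 14 of 120 SNPs in 9 genes were lacking (11.7%), 13 in *Cyp2d11* and 1 in *Cyp2d41-ps*. *Cyp2d11* had 39 of 2208, 10 of 1772 and 955 of 1874 B6 counts at its lacking SNPs and 943 of 1898, 698 of 1263 and 931 of 1563 at its 15 balanced ones. *Cyp2d22*, next to it, had 20 balanced SNPs and AIs of 0.521, 0.539 and 0.541. *Cyp2d9*, *Cyp2d10*, *Cyp2d12*, *Cyp2d34* and *Cyp2d40* had no lacking SNP and AIs between 0.384 (*Cyp2d10* in E6.43) and 0.559 (*Cyp2d9* in E15.10). The pseudogene *Cyp2d37-ps* was at 0.687, 0.576 and 0.789. Other genes of the chromosome 15 segment had 82 lacking SNPs of 1141 (7.19%).

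Of 16 listed genes with roles in lymphocytes or blood cells, 14 had kept SNPs, and 3 had lacking ones. These were *Csf2rb2*, *Csf2rb* and *Ncf4*, a subunit of the phagocyte oxidase, with 12 lacking of the 121 SNPs of the list (9.92%), near the 10.5% of all kept SNPs. Without *Csf2rb2* it was 2 of 98. The 11 genes without lacking SNPs had AIs from 0.470 to 0.650 in E6.2. *Il2rb*, a chain of the interleukin 2 receptor, had 0.5, 0.492 and 0.519, *Rac2*, a GTPase of blood cells, 0.470, 0.543 and 0.576, and *Dicer1*, the nuclease of microRNA maturation, 0.56, 0.556 and 0.548. *Gpr65*, a receptor for protons, had 0.601, 0.598 and 0.548, and *Ep300*, a histone acetyltransferase, 0.537, 0.514 and 0.549. *Tnfrsf13c*, the receptor for the B cell factor BAFF, had 0.650, 0.512 and 0.583 at 2 SNPs. *Itpk1*, *Lgmn*, *Asb2* and *Grap2* had AIs between 0.476 (*Asb2* in E6.2) and 0.625 (*Grap2* in E6.2). Well covered genes without a role in the list, *Plec* with 29 balanced SNPs, *4930407I10Rik* with 26 and *Unc79* with 25, had no lacking SNP either.

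The number of counts at lacking SNPs gives their relative amount of captured DNA. Of 10000 autosomal counts, 15.3, 15.8 and 23.0 fell on the lacking SNPs. Relative to E15.10 this was 0.668 for the B cells and 0.690 for the clone of the same donor. At balanced SNPs it was 0.777 and 0.800, at the flanking SNPs 0.715 and 0.745, and at autosomal SNPs elsewhere 0.944 and 0.957. The ratio was thus below that elsewhere at the lacking, the balanced and the flanking SNPs. In the 67 genes with both classes, the lacking SNPs had 0.667 and 0.688 and the balanced SNPs 0.741 and 0.773.

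In those genes the depth of lacking SNPs was set beside that of balanced SNPs, first with the SNPs of all 67 genes pooled. The 212 lacking SNPs had on average 1.05, 1.03 and 1.16 times the total counts of the 381 balanced SNPs. Their CAST counts were on average 2.21, 2.26 and 1.24 times those of the balanced SNPs. Genes with many lacking SNPs weigh more in the lacking average, so these are not ratios within a gene. Relative to E15.10, the depth of lacking over balanced SNPs in a gene had a median of 0.950 (E6.2) and 0.988 (E6.43) over the 67 genes, with quartiles of 0.797 and 1.07 and of 0.839 and 1.12. In the 13 genes with at least 3 SNPs of each class the medians were 0.970 and 0.929. Summed over all SNPs of the 67 genes, the same quantity was 0.901 and 0.890, so that the sum was lower than the median of the genes. The excess of CAST counts at lacking SNPs was larger in both libraries of donor animal 6 than in E15.10. The class limits favour this difference, since lacking SNPs were chosen by few B6 counts in donor animal 6 and not in E15.10. The part that depth has in the excess was not tested. The GC content within 75 bp had a median of 53.6% at lacking and 54.3% at balanced SNPs.

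Summed over all SNPs of both segments, AI was 0.491, 0.487 and 0.546. On chromosome 12 it was 0.474, 0.464 and 0.555 and on chromosome 15 0.501, 0.501 and 0.541. At the balanced SNPs the B6 shares were 53.9% (53.7 to 54.2), 54.1% (53.9 to 54.4) and 54.2% (53.9 to 54.4).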

How the data were processed

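Exome DNA of 3 libraries was analysed. The authors used ASEReadCounter* to assign reads to alleles and deposited whole-number counts of each allele, by gene and by SNP. Summing a gene's SNPs gave its deposited counts in each file, as was checked. The submitters' processing notes name cutadapt 1.14, Trim Galore, STAR 2.5.4a, SAMtools, GATK and GRCm38/mm10. For the exome the study names this pipeline and filters on a gene's allelic counts and AI, though the library files still list genes outside that AI range. Alignment settings are stated for RNA-seq reads only, and the handling of duplicate reads and of reads that align in several places is not given in the sources used here for the exome. Alignment in favour of the reference would raise AI, and near-identical gene copies can lose or exchange reads. A deposited table of the whole series with AI, its interval limits, p-values and calls was not used.

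AI was reference (B6) over total counts, for SNPs with at least 20 counts in each library. Duplicate positions numbered 0, as did columns of no library. Genes came from GENCODE M21, where 296 of the 301 genes were found, and windows from the GRCm38.p6 reference with samtools 1.23.1. Calculations used Python 3.11.15, pandas 2.3.3, numpy 2.4.6 and scipy 1.17.1. Of these calculations, only the call of lacking SNPs was tried on simulated counts, with B6 shares set far apart. The Wilson interval was compared with a known value. Members and gene lists were chosen with earlier results of these data known. The lacking and balanced classes and the clusters were defined after seeing the values. Genes named comprised all members of the Serpina, Ifi27, Ly6, Apol, Cyp2d and *Apobec3* families, the 8 best covered genes per segment, up to 5 per segment whose AI differed most between libraries (at least 100 counts in each), and a lymphocyte list of 16 genes, 1 of which is not reported here. Genes with at least 3 lacking SNPs and those at cluster ends or in sequence windows were named after their values were seen. With 1 library per group no test was made. Thresholds, depth minimum, spacing of SNPs and denominators were varied.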

Additional observations from a re-analysis of the deposited data

How the results depend on the processing

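No paired analysis was possible because each group is 1 library, and for the same reason no library could be left out. The share of SNPs under the AI limit in E6.2, 8.90% at 0.05, became 4.70%, 10.6% and 11.5% at limits of 0.02, 0.1 and 0.25, and that in E15.10, 0.0447%, became 0% and 0.537% at 0.02 and 0.25. AI over both segments, summed, was 0.491, 0.487 and 0.546, as a median over SNPs 0.528, 0.532 and 0.549, with SNPs at least 300 bp apart 0.478, 0.476 and 0.533, and with a minimum of 50 counts 0.484, 0.477 and 0.541. Runs of at least 5 SNPs under 0.05 numbered 6 in E6.2 and 10 in E6.43, those of at least 3 SNPs 17 and 23, and those of at least 10 SNPs 1 and 2. As a choice made after seeing the data, leaving out the Serpina and Cyp2d families and *Gm8893* took the lacking SNPs from 235 to 155. It also took all kept SNPs from 2235 to 1788, so part of the drop is the smaller number of SNPs. Relative to E15.10, depth at lacking SNPs was 0.668 (E6.2) and 0.690 (E6.43) over all autosomal counts and 0.637 and 0.643 over the counts of the same chromosomes outside the segments. The depth of lacking over balanced SNPs in genes with both, relative to E15.10, was 0.901 and 0.890 when summed and 0.950 and 0.988 as a median over genes, another choice made after seeing the data. The cause of these shifts was not tested, beyond fewer or more SNPs passing a stricter or looser limit. The other 44 of 67 recomputed values stayed within the counting interval or within 1.5 times the reported count. Depth limits single SNPs, where a B6 share under about 4% cannot be told from 0 in E6.43 and E15.10.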
